A study of Mus musculus with 12 samples.

Results

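Collagen genes encode the chains of the collagen proteins, and their messenger RNA was followed here in mouse livers after ischemia-reperfusion injury (IRI) with and without a high-fat diet. The members were the 43 of 25947 entries in the table whose symbol is Col, a type number, the letter a and a chain number. By class they were 11 fibrillar genes, 8 basement membrane genes and 24 other genes. The 12 liver libraries came from wild-type mice in 4 groups of 3: HFD-IRI, HFD-Sham, ND-IRI and ND-Sham. HFD mice ate a high-fat diet for 4 months as a model of steatosis, and ND mice ate a normal diet for the same time. In IRI, inflow to the left and middle liver lobes was tied off for 1 h and the tissue was collected 6 h after release, and sham mice had the surgery without the tie. Strain, sex and age are not given in the labels used here, nor is whether the sampled lobe was one whose inflow had been tied.

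Collagen chains fold together in the endoplasmic reticulum into a helix after enzymes hydroxylate their prolines and lysines, and a chain without its partners is not secreted. Fibrillar collagens build the tensile fibers that accumulate in liver fibrosis, with hepatic stellate cells and portal fibroblasts as their main known sources. Type IV collagen forms the sheet of basement membranes, types XV and XVIII sit beside it, and type VI filaments and fibril-associated collagens link these structures to each other.

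Values were the authors' TPM (transcripts scaled to transcript length and library total), with the same sum in every library, so the sequencing depth was unknown. In whole liver, a change in how many cells of a type were present and a change in RNA per cell cannot be told apart. A gene was tested on log2(TPM + 1) with limma if it reached 1 TPM in at least 3 of the 12 libraries, and it was called at an adjusted p under 0.05 over all 13364 tested genes. On that scale the fold change of a low gene is understated. The labels do not say whether the samples of a group came from separate mice, so p-values measure the spread between samples, which may be technical. For 1 gene, the smallest p of an exact permutation test is 0.1 at 3 libraries a group. The first ND-Sham library stood apart, with 11.6 TPM of the adipocyte gene Adipoq against at most 0.23 TPM in the other libraries. It also had 16.6 TPM of the smooth muscle actin gene Acta2, against at most 6.26 TPM elsewhere. The fit was therefore repeated without the first library of both ND groups (ND-Sham 1 and ND-IRI 1), a choice made after the data were seen. The Adipoq and Acta2 values set ND-Sham 1 apart and not ND-IRI 1.

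Of the 43 collagen genes, 21 passed the filter on low values: 8 fibrillar, 5 basement membrane and 8 other genes. The remaining 22 summed to between 2.10 and 5.83 TPM per library, and Col6a5 was the only one of them to reach 1 TPM in any library (1.33 TPM in the first ND-Sham library). Passing the filter was itself tied to the groups for several low members. Col11a2 reached 1 TPM in 3 ND-IRI and 1 HFD-IRI libraries and in no sham library, and Col12a1 reached it in no ND-Sham library. The summed collagen level was 445 to 468 TPM in HFD-IRI livers and 505 to 677 TPM in HFD-Sham livers. In ND-IRI livers it was 364 to 463 TPM, and in ND-Sham livers 508 to 535 TPM. The IRI range lay below the sham range on each diet.

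A single basement membrane gene, Col18a1, held most of this sum in sham livers, and its part was smaller after IRI. Its share of the summed collagen TPM was 38.7% to 53.6% in HFD-IRI livers, 55.4% to 68.9% in HFD-Sham livers, 49.1% to 65.1% in ND-IRI livers and 73.2% to 81.9% in ND-Sham livers. Col4a1 and Col4a2 together, the main type IV chains, took 21.8% to 28.0% in HFD-IRI livers, 6.03% to 8.65% in HFD-Sham livers, 15.6% to 25.7% in ND-IRI livers and 2.92% to 3.59% in ND-Sham livers. The type IV share was higher in every IRI library than in any sham library. The fibrillar class took 12.9% to 18.6% in HFD-IRI livers, 13.05% to 23.4% in HFD-Sham livers, 10.4% to 14.7% in ND-IRI livers and 8.75% to 14.7% in ND-Sham livers, ranges that overlapped between every pair of IRI and sham groups.

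**Figure D1:**
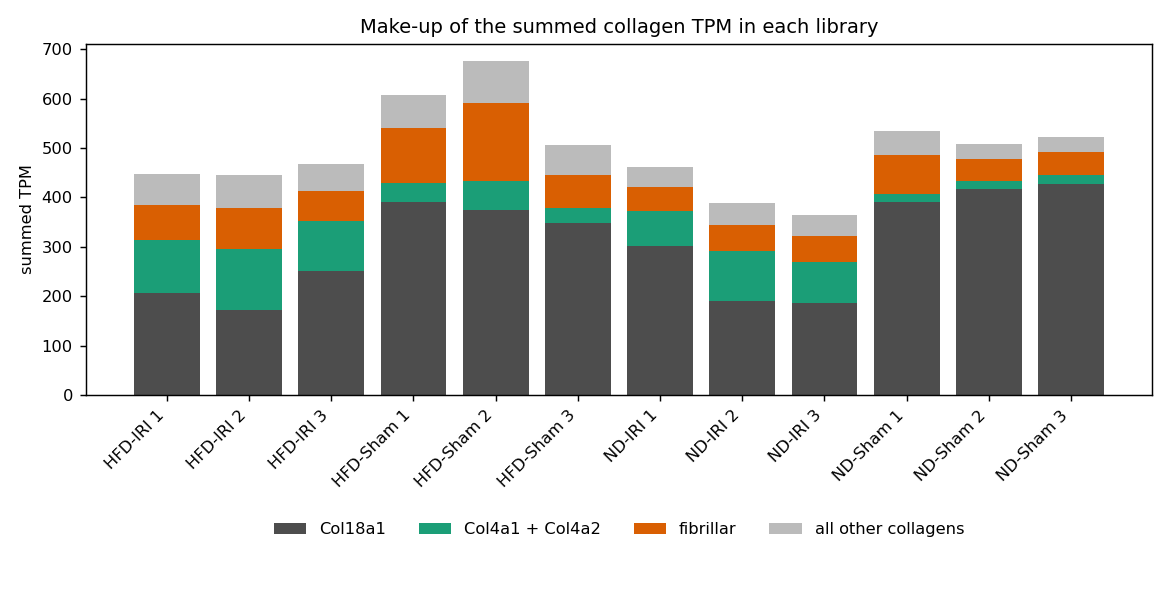
Summed TPM of the 43 collagen genes in each library, stacked as Col18a1, Col4a1 with Col4a2, the fibrillar class and all other collagens; each bar is 1 library. The Col4a1 and Col4a2 block is thicker in the 6 IRI bars (15.6% to 28.0% of the bar) than in the 6 sham bars (2.92% to 8.65%).

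Counts of called members differed by comparison. In HFD-IRI against HFD-Sham livers, 3 of the 21 tested members were higher and 5 lower, while 24.0% of all tested genes were higher and 21.9% lower. In ND-IRI against ND-Sham livers, 8 were higher and 1 lower, against 30.2% and 16.6% of all tested genes. The members' shares were 14.3% higher and 23.8% lower on the high-fat diet, and 38.1% higher and 4.76% lower on the normal diet. Against a background of this size, the counts are given as a description of the members and not as a result about the class. Col11a2, counted among the 8 higher on the normal diet, passed the filter only through IRI libraries.

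Between the diets the background was small. In HFD-IRI against ND-IRI livers, 5 collagens were higher and 2 lower (23.8% and 9.52% of the tested members), against 2.38% and 1.48% of all tested genes. The lower genes include Col11a2, which passed the filter only through IRI libraries, so its call is not independent of the filter. In HFD-Sham against ND-Sham livers, 8 collagens were higher and 0 lower (38.1% higher), against 4.63% and 1.20% of all tested genes. Most of the diet calls in IRI livers and several in sham livers were lost in some alternative fits, as given below. The difference between the IRI effects on the 2 diets passed the threshold for 1 collagen, Col27a1, and for 0.0973% of all tested genes. Each group enters several of these comparisons, so the comparisons share libraries and are not independent of one another.

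Over all tested genes the median difference was not 0 in every comparison. On the log2 scale it was 0.16 in ND-IRI against ND-Sham livers and 0.17 in HFD-Sham against ND-Sham livers. Median-ratio scaling brought these medians to 0.0041 and 0.0063. The median of the tested collagens was 0.06 in the first of these comparisons and 0.75 in the second. Of all tested genes, 4035 were higher and 2213 lower in ND-IRI than in ND-Sham livers, which became 3477 and 3269 with median-ratio scaling and 3252 and 3806 with quantile normalization. In HFD-Sham against ND-Sham livers the 619 higher and 161 lower genes became 275 and 207, or 343 and 254. No called collagen changed sign under either scaling.

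**Figure D2:**
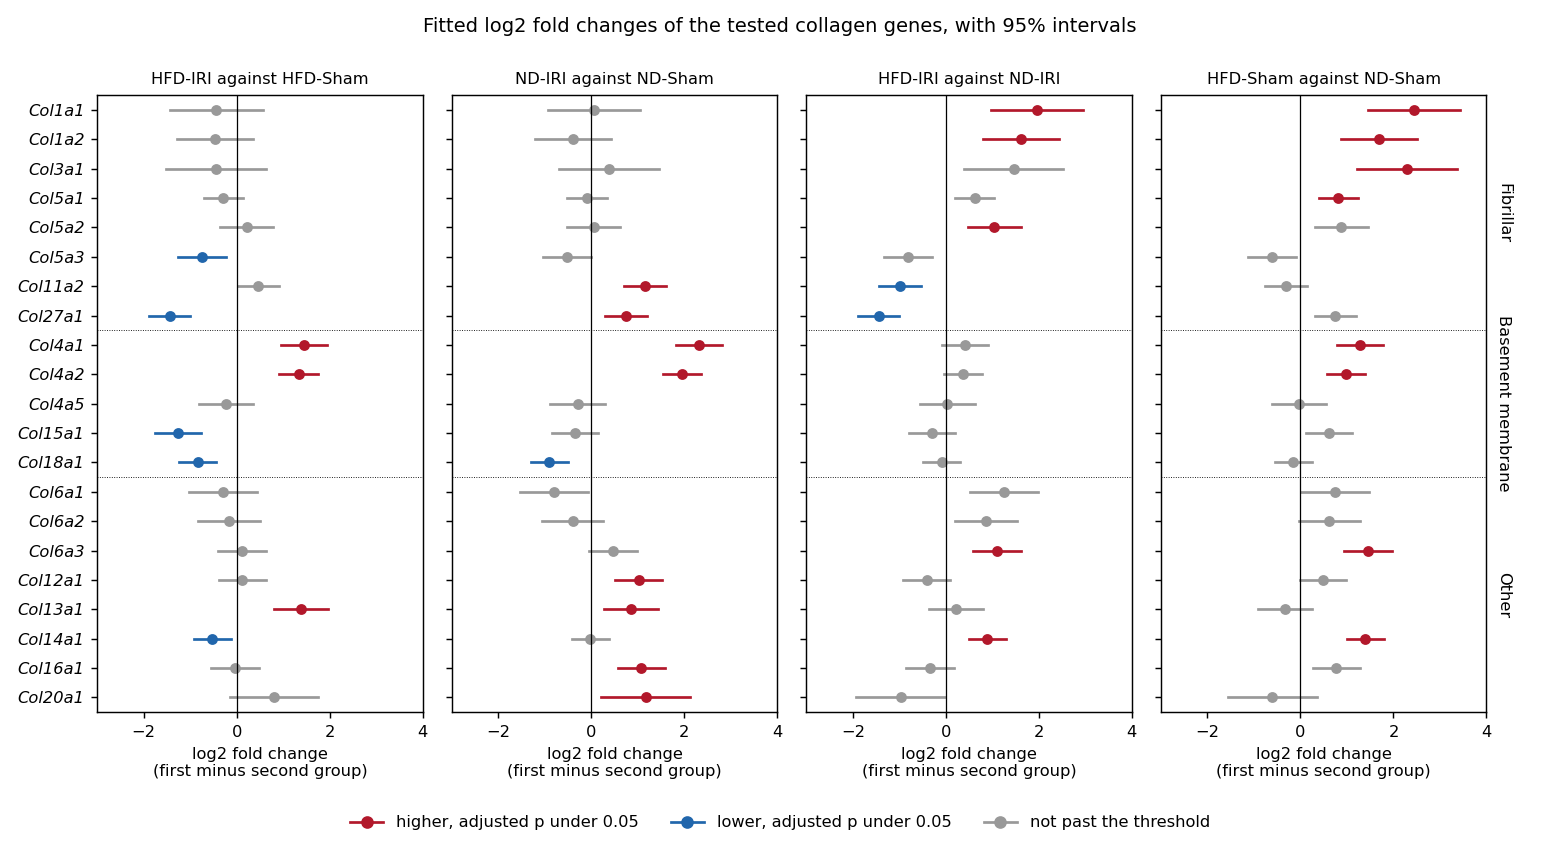
Fitted log2 fold changes (log2(TPM + 1) scale, horizontal axis) of the 21 tested collagen genes in 4 comparisons, with 95% intervals; red and blue mark higher and lower genes past the threshold. The 3 higher genes of HFD-IRI against HFD-Sham are Col4a1, Col4a2 and Col13a1, and all 8 called genes of HFD-Sham against ND-Sham lie to the right of 0.

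Among basement membrane collagens, the type IV pair rose with IRI on both diets, and Col18a1 fell on both. Col4a1 and Col4a2 encode the chains of the network found in nearly all basement membranes, and they stand head to head on mouse chromosome 8. In the mouse assembly GRCm38.p6, an earlier build than the GRCm39 named in the submitters' processing notes, the annotated 5′ ends of their transcripts overlap by 22 bases. The stretch chr8:11312801-11312830, from the RefSeq promoter windows, is printed on the plus strand because it is where both genes start. The capitals mark the 22 shared bases, which run from the Col4a2 start at 11312805 on the plus strand to the Col4a1 start at 11312826 on the minus strand.
Col4a1 and Col4a2 shared start: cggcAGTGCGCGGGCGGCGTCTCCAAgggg

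Col4a1 had 72.9, 83.8 and 67.4 TPM in HFD-IRI livers, 22.8, 41.5 and 20.2 TPM in HFD-Sham livers, 48.7, 65.4 and 54.9 TPM in ND-IRI livers and 8.96, 10.5 and 11.8 TPM in ND-Sham livers. The 4 groups did not overlap, with all IRI libraries above all sham libraries and HFD above ND within each operation. The IRI difference was 1.44 on the log2 scale on the high-fat diet (95% interval 0.94 to 1.94, adjusted p = 0.000389) and 2.32 on the normal diet (1.83 to 2.82, adjusted p = 1.51e-05). In sham livers the high-fat diet raised it by 1.29 (0.79 to 1.79, adjusted p = 0.00792). In IRI livers the diets differed by 0.41 (-0.09 to 0.90, adjusted p = 0.449), which did not pass the threshold.

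Col4a2 had 34.6, 40.8 and 34.7 TPM in HFD-IRI livers, 15.6, 17.0 and 10.2 TPM in HFD-Sham livers, 23.4, 34.7 and 27.7 TPM in ND-IRI livers and 6.66, 6.05 and 6.98 TPM in ND-Sham livers. It followed the order of its neighbor, with the highest ND-IRI library reaching into the HFD-IRI range. IRI raised it by 1.33 on the high-fat diet (SE 0.189, adjusted p = 0.000191) and by 1.95 on the normal diet (SE 0.189, adjusted p = 1.38e-05). The diet raised it by 0.99 in sham livers (adjusted p = 0.0115), a call that was lost without ND-Sham 2 or HFD-Sham 2 (highest adjusted p = 0.0634). Per library, the ratio of Col4a1 to Col4a2 TPM was 1.94 to 2.10 in HFD-IRI livers, 1.46 to 2.45 in HFD-Sham livers, 1.89 to 2.07 in ND-IRI livers and 1.35 to 1.74 in ND-Sham livers. The smaller fitted IRI effect on the high-fat diet did not differ from that on the normal diet past the threshold for Col4a1 (difference -0.88, -1.59 to -0.18, adjusted p = 0.345) or Col4a2 (-0.62, -1.20 to -0.04, adjusted p = 0.457).

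Markers of liver endothelium also differed with IRI. Their summed level was 193 to 240 TPM in HFD-IRI livers, 89.9 to 149 TPM in HFD-Sham livers, 193 to 226 TPM in ND-IRI livers and 80.0 to 111 TPM in ND-Sham livers. Of the 10 tested markers, 5 were higher and 1 lower on each diet, beside a background of 24.0% higher and 21.9% lower on the high-fat diet and 30.2% and 16.6% on the normal diet. The 2 most abundant were Lyve1, a hyaluronan receptor, and Cdh5, which encodes VE-cadherin. Stellate cell markers summed to 217 to 242 TPM in HFD-IRI livers, 235 to 281 TPM in HFD-Sham livers, 158 to 198 TPM in ND-IRI livers and 174 to 200 TPM in ND-Sham livers. Of the 12 tested, 1 was higher and 2 lower with IRI on the high-fat diet, and 3 higher and 1 lower on the normal diet, beside the same background. All 6 cholangiocyte markers were higher after IRI on each diet, beside the same 24.0% and 30.2% of all tested genes. No marker of these 3 lists was at 0 in all libraries of a group. The part of these cell types in the type IV result was not tested.

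Col18a1, whose protein carries the fragment endostatin at its end, was the most abundant collagen transcript in each library. It had 207, 172 and 250.4 TPM in HFD-IRI livers, 391, 375 and 348 TPM in HFD-Sham livers, 301, 191 and 186 TPM in ND-IRI livers and 392, 416 and 428 TPM in ND-Sham livers. No IRI library reached the sham range of its diet. It fell by 0.84 on the log2 scale on the high-fat diet (-1.23 to -0.44, adjusted p = 0.00286) and by 0.90 on the normal diet (-1.29 to -0.50, adjusted p = 0.00171), and the effects differed by 0.06 between the diets (-0.49 to 0.62, adjusted p = 0.954). Diet differences were -0.09 in IRI livers (-0.48 to 0.31) and -0.15 in sham livers (-0.54 to 0.24), neither past the threshold. Hepatocytes are a known source of this transcript in liver, and the 9 hepatocyte markers in the table summed to 100596 to 108508 TPM in HFD-IRI livers, 96911 to 111061 TPM in HFD-Sham livers, 100531 to 127440 TPM in ND-IRI livers and 104956 to 124232 TPM in ND-Sham livers. These ranges overlapped between IRI and sham on each diet. Of these 9 markers, 1 was called higher and 1 lower on the high-fat diet, and 1 higher and 4 lower on the normal diet. Of all tested genes, 21.9% were lower on the high-fat diet and 16.6% on the normal diet.

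Col15a1 encodes the other collagen with an endostatin-like end, found at vessel and muscle basement membranes. It had 1.17, 1.15 and 1.26 TPM in HFD-IRI livers, 3.64, 5.54 and 3.76 TPM in HFD-Sham livers, 1.71, 1.76 and 1.60 TPM in ND-IRI livers and 3.92, 2.25 and 1.48 TPM in ND-Sham livers. On the high-fat diet the IRI libraries lay well below the sham libraries, and the gene fell by 1.26 (-1.75 to -0.76, adjusted p = 0.000920). On the normal diet the ranges overlapped, and the difference of -0.34 did not pass (-0.84 to 0.15, adjusted p = 0.237). The difference between the diets was -0.92 (adjusted p = 0.327), and without ND-Sham 1 and ND-IRI 1 it was -1.17 (adjusted p = 0.0497). Without ND-Sham 1 alone it was -1.18 (adjusted p = 0.0846), which did not pass. Col4a5, a chain of type IV networks in kidney and some other tissues, ranged from 0.39 to 1.97 TPM and was called in no comparison. Col4a3, Col4a4 and Col4a6 did not pass the filter.

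**Figure D3:**
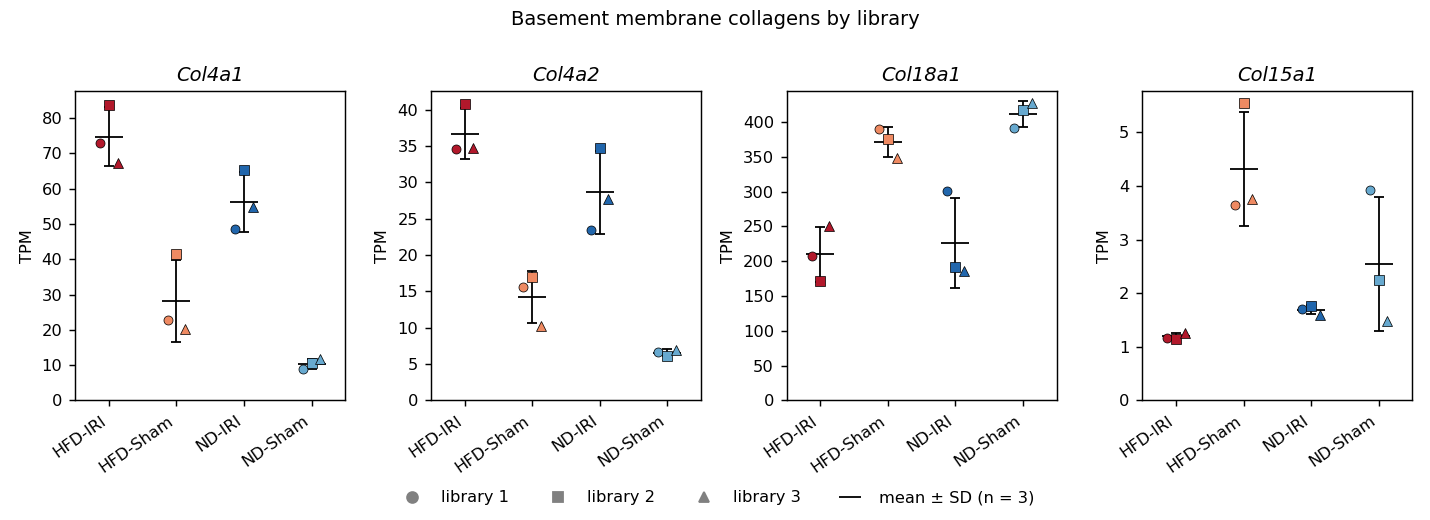
TPM of Col4a1, Col4a2, Col18a1 and Col15a1 by group (vertical axis, linear, from 0); symbols are libraries and bars are mean ± SD (n = 3). Col4a1 lies at 67.4 to 83.8 TPM in HFD-IRI livers against 8.96 to 11.8 TPM in ND-Sham livers, while Col18a1 is lower in both IRI groups than in the sham groups.

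The major fibrillar collagens differed with the diet. Col1a1 and Col1a2, the chains of type I collagen, and Col3a1, the chain of type III, were all higher in HFD-Sham than in ND-Sham livers, and none of these genes was called for IRI on either diet. Col1a1 had 13.8, 19.3 and 9.61 TPM in HFD-IRI livers, 18.9, 35.3 and 9.86 TPM in HFD-Sham livers, 2.44, 2.72 and 3.30 TPM in ND-IRI livers and 6.04, 1.19 and 2.18 TPM in ND-Sham livers. All 6 HFD libraries lay above all 6 ND libraries. The diet difference was 1.95 in IRI livers (0.96 to 2.94, adjusted p = 0.0335) and 2.44 in sham livers (1.45 to 3.43, adjusted p = 0.0101). The call in IRI livers was lost in 7 of 18 alternatives, namely no filter and leaving out any ND-IRI library, HFD-Sham 1, HFD-IRI 1 or HFD-IRI 2 (highest adjusted p = 0.125), and that in sham livers in 0. The IRI difference was -0.43 on the high-fat diet (-1.42 to 0.56, adjusted p = 0.458) and 0.06 on the normal diet (-0.93 to 1.05, adjusted p = 0.930), a value that turned to -0.07 with median-ratio scaling and -0.18 with quantile normalization.

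Col1a2 had 8.41, 11.7 and 6.69 TPM in HFD-IRI livers, 12.2, 20.7 and 7.62 TPM in HFD-Sham livers, 2.83, 1.98 and 1.83 TPM in ND-IRI livers and 6.28, 1.82 and 2.59 TPM in ND-Sham livers. Again all HFD libraries were above all ND libraries, with the second HFD-Sham library the highest and the first ND-Sham library the highest of the ND livers. It was higher with the diet by 1.61 in IRI livers (SE 0.374, adjusted p = 0.0334) and by 1.69 in sham livers (SE 0.374, adjusted p = 0.0230). Its sham call was lost with no filter and without ND-Sham 2, ND-Sham 3, HFD-Sham 1 or HFD-Sham 2 (highest adjusted p = 0.109), and its IRI call with no filter and without ND-IRI 2, ND-IRI 3, HFD-Sham 1, HFD-IRI 1 or HFD-IRI 2 (highest adjusted p = 0.123). Type I collagen is assembled from both chains, and the ratio of Col1a1 to Col1a2 TPM was 1.44 to 1.65 in HFD-IRI livers, 1.29 to 1.70 in HFD-Sham livers, 0.862 to 1.80 in ND-IRI livers and 0.654 to 0.962 in ND-Sham livers.

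Col3a1 was the most abundant of these transcripts in every library, and the 250 bases before its start are shown with its capitals marking the only TATAAA match of the window. The match lies 117 bases before the start, and TATAAA on either strand occurs in 12.4% of the 32851 RefSeq promoter windows of that length. Neither CCAAT nor GGGCGG was found in it on either strand, letters that 33.8% and 32.7% of the windows hold. The window is chr1:45311288-45311537 of GRCm38.p6 on the plus strand, with 35.2% G and C.
Col3a1: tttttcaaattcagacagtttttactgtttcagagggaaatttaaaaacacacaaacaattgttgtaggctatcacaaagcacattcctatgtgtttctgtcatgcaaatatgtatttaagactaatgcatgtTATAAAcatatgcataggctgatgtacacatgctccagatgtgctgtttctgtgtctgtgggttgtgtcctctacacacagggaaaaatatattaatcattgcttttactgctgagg

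Col3a1 had 21.6, 32.1 and 18.2 TPM in HFD-IRI livers, 34.3, 55.2 and 17.6 TPM in HFD-Sham livers, 6.34, 9.13 and 8.35 TPM in ND-IRI livers and 15.3, 3.01 and 3.73 TPM in ND-Sham livers. The HFD libraries were all above the ND libraries, but the first ND-Sham library came close to the lowest of them. The diet difference was 2.30 in sham livers (1.22 to 3.37, adjusted p = 0.0196) and 1.46 in IRI livers (0.38 to 2.53, adjusted p = 0.152), where it did not pass. The sham call was lost under the same 5 alternatives as that of Col1a2 (highest adjusted p = 0.0968). The IRI difference was -0.45 on the high-fat diet (adjusted p = 0.476) and 0.39 on the normal diet (adjusted p = 0.545). Without ND-Sham 1 and ND-IRI 1 the normal diet value was 1.16 (adjusted p = 0.0381), a call that the full set of libraries did not give.

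Type V collagen nucleates type I fibrils. Col5a1, its main chain, had 5.58, 4.97 and 4.64 TPM in HFD-IRI livers, 6.76, 8.08 and 4.72 TPM in HFD-Sham livers, 3.16, 2.67 and 3.02 TPM in ND-IRI livers and 4.16, 2.57 and 3.02 TPM in ND-Sham livers. The HFD ranges lay above the ND ranges. The diet difference passed in sham livers (0.81, SE 0.194, adjusted p = 0.0309) and did not in IRI livers (0.62, SE 0.194, adjusted p = 0.118), and the sham call was lost under the same 5 alternatives as that of Col1a2 (highest adjusted p = 0.154). Col5a2, its partner chain and the neighbor of Col3a1 on chromosome 1, had 2.64, 3.00 and 2.93 TPM in HFD-IRI livers, 1.93, 3.60 and 1.70 TPM in HFD-Sham livers, 0.72, 0.79 and 1.12 TPM in ND-IRI livers and 1.73, 0.41 and 0.53 TPM in ND-Sham livers. Its diet difference passed in IRI livers (1.04, adjusted p = 0.0462), where the groups did not overlap, but the call was lost in 12 of 18 alternatives (highest adjusted p = 0.156), among them leaving out any ND-IRI or HFD-IRI library. In sham livers, where the first ND-Sham library lay inside the HFD range, the difference was 0.88 (adjusted p = 0.0720).

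Col5a3, a further type V chain, was lower after IRI. It had 14.7, 7.38 and 13.4 TPM in HFD-IRI livers, 23.8, 20.8 and 15.4 TPM in HFD-Sham livers, 22.2, 19.9 and 20.7 TPM in ND-IRI livers and 38.7, 27.3 and 27.0 TPM in ND-Sham livers. IRI ranges lay below sham ranges on both diets. The fall passed on the high-fat diet (-0.74, -1.26 to -0.23, adjusted p = 0.0231) and not on the normal diet (-0.53, -1.05 to -0.01, adjusted p = 0.0873), and the difference between the diets was -0.21 (adjusted p = 0.877). The call was lost without HFD-Sham 1, HFD-Sham 2 or HFD-IRI 2 (highest adjusted p = 0.0908). Diet differences of -0.82 in IRI livers (adjusted p = 0.0849) and -0.61 in sham livers (adjusted p = 0.163) did not pass. Over the 12 libraries its mean of 20.9 TPM was the highest of the fibrillar class, above that of Col3a1 at 18.7 TPM.

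**Figure D4:**
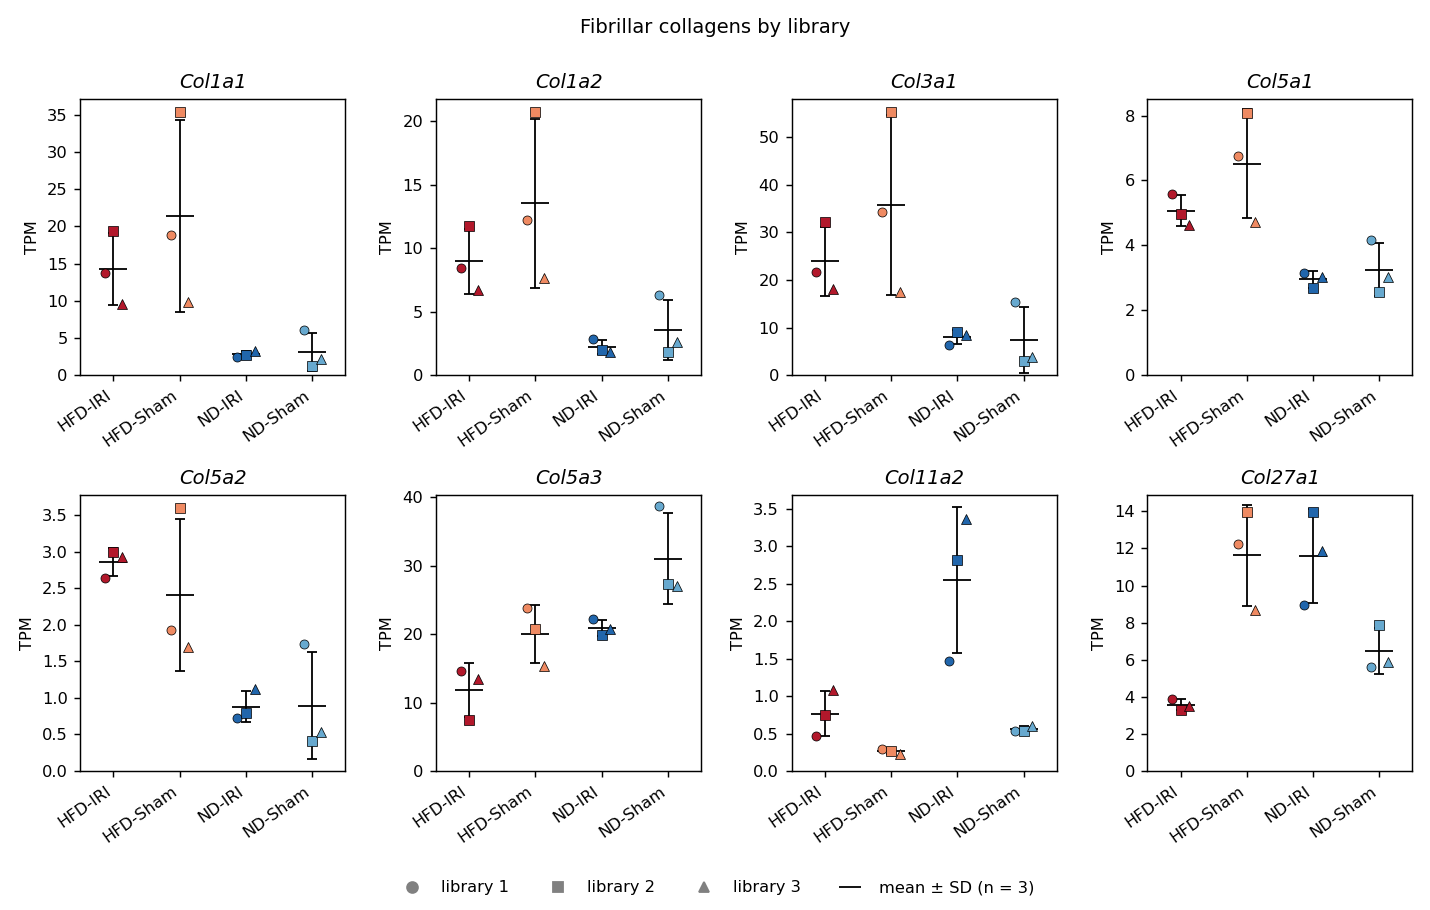
TPM of the 8 tested fibrillar collagens by group (vertical axes linear, from 0); symbols are libraries and bars are mean ± SD (n = 3). Col1a1 and Col1a2 lie higher in the 6 HFD than in the 6 ND libraries, and Col27a1 is lowest in HFD-IRI livers at 3.30 to 3.89 TPM.

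Col27a1, a fibril-forming collagen best known from cartilage, was the one collagen whose response to IRI differed between the diets past the threshold. It had 3.89, 3.30 and 3.53 TPM in HFD-IRI livers, 12.2, 14.0 and 8.67 TPM in HFD-Sham livers, 8.95, 14.0 and 11.9 TPM in ND-IRI livers and 5.60, 7.89 and 5.88 TPM in ND-Sham livers. IRI livers lay below sham livers on the high-fat diet and above them on the normal diet, with no overlap on either. The gene fell by 1.44 on the high-fat diet (SE 0.203, adjusted p = 0.000184) and rose by 0.75 on the normal diet (SE 0.203, adjusted p = 0.0101). The difference between these effects was -2.19 (-2.82 to -1.57, adjusted p = 0.0166). It did not pass when ND-Sham 3, ND-IRI 2, ND-IRI 3 or HFD-IRI 3 was left out, with adjusted p between 0.0108 and 0.0839 over all alternatives and the value between -2.48 and -1.999. Between diets it was lower by 1.44 in HFD-IRI than in ND-IRI livers (adjusted p = 0.00217) and 0.75 higher in HFD-Sham than in ND-Sham livers, which did not pass (adjusted p = 0.0518).

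The bases before Col27a1 are printed because this gene carries the difference between the diets, with capitals for the GGGCGG match 85 bases before its start. That motif occurs in 32.7% of promoter windows, and the window held neither TATAAA nor CCAAT on either strand. The stretch is chr4:63215162-63215411 of GRCm38.p6, plus strand, from RefSeq, with 59.6% G and C.
Col27a1: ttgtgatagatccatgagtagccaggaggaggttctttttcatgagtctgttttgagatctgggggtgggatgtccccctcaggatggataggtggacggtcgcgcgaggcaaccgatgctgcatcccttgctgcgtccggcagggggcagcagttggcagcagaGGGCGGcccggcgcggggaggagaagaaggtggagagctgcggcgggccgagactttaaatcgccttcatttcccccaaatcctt

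Col11a2, a minor fibrillar chain also best known from cartilage, was low throughout. It had 0.47, 0.75 and 1.08 TPM in HFD-IRI livers, 0.29, 0.27 and 0.23 TPM in HFD-Sham livers, 1.47, 2.81 and 3.36 TPM in ND-IRI livers and 0.53, 0.54 and 0.60 TPM in ND-Sham livers. ND-IRI livers stood above all others. The gene rose by 1.15 with IRI on the normal diet (0.70 to 1.60, adjusted p = 0.000859) and was lower by 0.98 in HFD-IRI than in ND-IRI livers (-1.43 to -0.53, adjusted p = 0.0212). The diet call was lost without ND-IRI 2, ND-IRI 3, HFD-IRI 1 or HFD-IRI 2 (highest adjusted p = 0.0999). The IRI difference on the high-fat diet was 0.47 (adjusted p = 0.0818). The gene passed the filter only through IRI libraries, 3 of ND-IRI and 1 of HFD-IRI. The filter thus favored a high ND-IRI level, and these tests are not independent of it. With no filter its adjusted p was 0.00197 for IRI on the normal diet and 0.0382 for HFD-IRI against ND-IRI livers. The other fibrillar genes, Col2a1, Col11a1 and Col24a1, did not pass the filter.

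Beside the diet difference of the fibrillar genes, stellate cell markers summed to 235 to 281 TPM in HFD-Sham livers and 174 to 200 TPM in ND-Sham livers, and 4 of the 12 tested markers were higher and 0 lower (Reln, Pdgfrb, Colec11 and Hgf), against 4.63% and 1.20% of all tested genes. The most abundant were Ecm1, which encodes a secreted matrix protein, and Colec11, a collectin. In HFD-IRI livers the sum was 217 to 242 TPM against 158 to 198 TPM in ND-IRI livers, with 0 of the 12 markers called. Markers of portal fibroblasts and smooth muscle summed to 63.0 to 101 TPM in HFD-IRI livers, 98.6 to 151 TPM in HFD-Sham livers, 65.4 to 83.1 TPM in ND-IRI livers and 34.2 to 99.7 TPM in ND-Sham livers. Of the 7 tested, 1 (Gas6) was higher and 0 lower in HFD-Sham than in ND-Sham livers, against the same 4.63% and 1.20%. Their median log2 difference there was -0.01, against 0.17 for all tested genes. The highest ND-Sham sum of these markers was that of the first library, whose fibrillar sum was 78.7 TPM against 44.9 and 45.7 TPM in the other ND-Sham libraries. Mesothelial markers summed to 19.5 TPM in that library and to 1.27 and 1.42 TPM in the other ND-Sham libraries, but also to 2.29 to 36.0 TPM in HFD-IRI livers, 2.91 to 16.3 TPM in HFD-Sham livers and 1.05 to 19.2 TPM in ND-IRI livers. The 8 adipocyte markers, some of which steatotic hepatocytes also express, summed to 173 to 411 TPM in HFD-IRI livers, 248 to 521 TPM in HFD-Sham livers, 93.1 to 137 TPM in ND-IRI livers and 54.05 to 165 TPM in ND-Sham livers, the last value being that of the first library. Of the 4 tested adipocyte markers, 2 (the lipid droplet genes Plin4 and Cidec) were higher in HFD-Sham than in ND-Sham livers, and Lep was at 0 in every HFD library. The part of these cells in the diet result was not tested.

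Without ND-Sham 1 and ND-IRI 1, the diet difference in sham livers was called for 13 collagens in place of 8. Added were Col5a2, Col6a1, Col6a2, Col15a1 and Col16a1, and all 8 of the first set remained. Calls over all tested genes were not counted in that fit, so the larger count describes the members only. Col1a1 then differed by 2.91 (adjusted p = 0.00505), Col3a1 by 2.93 (adjusted p = 0.00334) and Col1a2 by 2.09 (adjusted p = 0.00690). The type I and III differences in sham livers were larger without ND-Sham 1, and the same values were found with ND-Sham 1 alone left out.

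Among the 8 other collagens tested, Col6a3 and Col14a1 were called higher with the diet at each operation, and 4 were called higher after IRI on the normal diet. Col14a1, a fibril-associated collagen and the most abundant of this class, had 19.8, 24.6 and 24.6 TPM in HFD-IRI livers, 33.2, 38.2 and 29.1 TPM in HFD-Sham livers, 15.9, 11.3 and 9.20 TPM in ND-IRI livers and 12.5, 12.2 and 11.5 TPM in ND-Sham livers. HFD livers lay above ND livers for each operation. The diet raised it by 0.89 in IRI livers (0.50 to 1.29, adjusted p = 0.0174) and by 1.39 in sham livers (1.00 to 1.79, adjusted p = 0.00138). IRI lowered it on the high-fat diet by a log2 difference of -0.52 (-0.91 to -0.13, adjusted p = 0.0327), and the difference of -0.02 on the normal diet did not pass (-0.41 to 0.37, adjusted p = 0.931). These IRI effects differed by -0.50 between the diets (adjusted p = 0.547), which did not pass. The IRI call was lost with no filter, with median-ratio scaling and without HFD-Sham 1, HFD-Sham 2 or HFD-IRI 1 (highest adjusted p = 0.121), and the diet call in IRI livers with median-ratio scaling and without ND-IRI 2 or 3 or HFD-IRI 2 or 3 (highest adjusted p = 0.0727).

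Type VI collagen forms beaded filaments around cells from the chains of Col6a1, Col6a2 and Col6a3. Col6a3 had 7.23, 7.15 and 6.70 TPM in HFD-IRI livers, 5.69, 9.12 and 5.11 TPM in HFD-Sham livers, 2.66, 2.24 and 3.41 TPM in ND-IRI livers and 2.43, 0.96 and 1.97 TPM in ND-Sham livers. All HFD libraries exceeded all ND libraries, and the diet raised it by 1.10 in IRI livers (adjusted p = 0.0231) and 1.46 in sham livers (adjusted p = 0.00514). The call in IRI livers was lost with no filter and without ND-IRI 2 or any HFD-IRI library (highest adjusted p = 0.107). Its IRI differences of 0.11 on the high-fat diet and 0.46 on the normal diet did not pass, and quantile normalization turned the first to -0.01.

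Col6a1 had 12.6, 11.3 and 7.33 TPM in HFD-IRI livers, 11.9, 15.1 and 11.2 TPM in HFD-Sham livers, 5.33, 2.42 and 3.84 TPM in ND-IRI livers and 13.5, 4.55 and 5.85 TPM in ND-Sham livers. The first ND-Sham library lay within the HFD range, and the other ND-Sham libraries lay below it. Its diet difference was 1.25 in IRI livers (0.51 to 1.98, adjusted p = 0.0659) and 0.74 in sham livers (0.00 to 1.47, adjusted p = 0.234), and neither passed. Col6a2 ranged from 0.92 to 5.07 TPM and was called in no comparison. Without ND-Sham 1 and ND-IRI 1, the sham diet difference was 1.15 for Col6a1 (adjusted p = 0.0172) and 0.99 for Col6a2 (adjusted p = 0.0284). In each library Col6a1 was 2.63 to 3.93 times the TPM of Col6a2, its neighbor on chromosome 10.

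Col13a1, a collagen anchored in the cell membrane, was the only member besides Col4a1 and Col4a2 called higher with IRI on both diets. It had 6.42, 7.69 and 4.55 TPM in HFD-IRI livers, 2.28, 1.18 and 1.78 TPM in HFD-Sham livers, 3.32, 7.47 and 5.24 TPM in ND-IRI livers and 1.83, 3.13 and 2.37 TPM in ND-Sham livers. IRI and sham libraries did not overlap on either diet, though the lowest ND-IRI value was close to the highest ND-Sham value. The rise was 1.39 on the high-fat diet (0.81 to 1.97, adjusted p = 0.00135) and 0.85 on the normal diet (0.26 to 1.43, adjusted p = 0.0211). The second of these was lost in 6 of 18 alternatives: no filter, quantile normalization and leaving out ND-Sham 1 or 3 or ND-IRI 2 or 3 (highest adjusted p = 0.0981).

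The fibril-associated collagens Col12a1, Col16a1 and Col20a1 rose with IRI on the normal diet. Col16a1 had 2.77, 2.97 and 2.99 TPM in HFD-IRI livers, 3.27, 3.5 and 2.32 TPM in HFD-Sham livers, 2.46, 5.23 and 4.62 TPM in ND-IRI livers and 1.97, 0.96 and 1.21 TPM in ND-Sham livers. It rose by 1.08 on the normal diet (0.57 to 1.59, adjusted p = 0.00277), where the groups did not overlap, and differed by -0.03 on the high-fat diet (-0.54 to 0.48). The difference between these effects was -1.11 (adjusted p = 0.224), and -1.54 without ND-Sham 1 and ND-IRI 1 (adjusted p = 0.0219). Without ND-Sham 1 alone it was -1.28 (adjusted p = 0.122), which did not pass.

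Col12a1, which associates with type I fibrils under tension, had 1.38, 1.11 and 0.78 TPM in HFD-IRI livers, 0.72, 1.34 and 0.71 TPM in HFD-Sham livers, 2.97, 1.06 and 1.58 TPM in ND-IRI livers and 0.34, 0.43 and 0.31 TPM in ND-Sham livers. ND-Sham livers were below all others. It rose by 1.02 with IRI on the normal diet (0.52 to 1.53, adjusted p = 0.00359) and differed by 0.13 on the high-fat diet (-0.38 to 0.63, adjusted p = 0.681), and these effects differed by -0.90 (adjusted p = 0.349). Col20a1 had 2.17, 3.22 and 0.71 TPM in HFD-IRI livers, 0.58, 0.61 and 0.69 TPM in HFD-Sham livers, 1.44, 8.17 and 6.65 TPM in ND-IRI livers and 1.28, 2.07 and 1.15 TPM in ND-Sham livers. The first ND-IRI library lay inside the ND-Sham range, and the rise of 1.17 on the normal diet (adjusted p = 0.0448) was lost in 13 of 18 alternatives (highest adjusted p = 0.183), including without ND-IRI 2, ND-IRI 3 or any ND-Sham library. On the high-fat diet the Col20a1 difference of 0.80 did not pass (adjusted p = 0.153), though the groups did not overlap. Its IRI effects differed by -0.37 between the diets (adjusted p = 0.891), which did not pass.

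**Figure D5:**
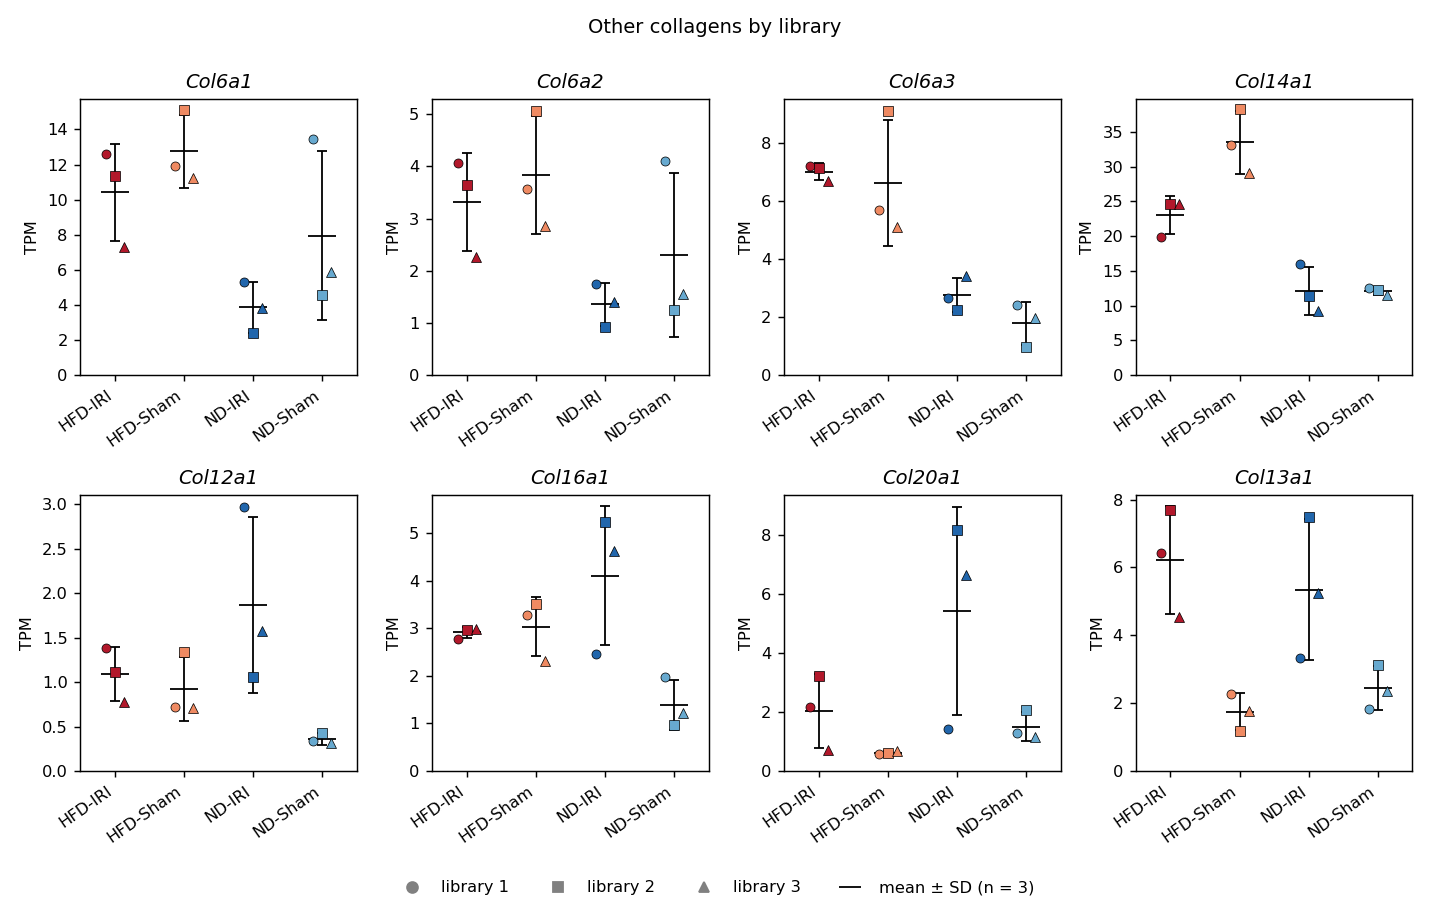
TPM of the 8 tested collagens outside the fibrillar and basement membrane classes by group (vertical axes linear, from 0); symbols are libraries and bars are mean ± SD (n = 3). Col14a1 is highest in HFD-Sham livers at 29.1 to 38.2 TPM, and Col13a1 is higher in both IRI groups than in the sham groups.

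The enzymes and chaperones that fold collagen chains included genes called in both directions after IRI. Of 19 tested genes of this list, 5 were higher and 4 lower in HFD-IRI than in HFD-Sham livers, and 11 higher and 2 lower in ND-IRI than in ND-Sham livers. The background for this and the following lists was 24.0% higher and 21.9% lower on the high-fat diet, close to the list's own shares there, and 30.2% and 16.6% on the normal diet. P4ha1, a prolyl 4-hydroxylase subunit, averaged 34.8 ± 16.03 TPM in HFD-IRI livers and 7.47 ± 0.125 TPM in HFD-Sham livers, and 33.6 ± 16.7 TPM in ND-IRI livers and 4.97 ± 1.20 TPM in ND-Sham livers (SD, n = 3). Serpinh1, the collagen chaperone HSP47, was higher by 1.48 (adjusted p = 0.0134) on the high-fat diet and 2.20 (adjusted p = 0.00129) on the normal diet. Mia3, which helps load procollagen into transport carriers, was lower by a log2 difference of -0.73 on the high-fat diet and -0.68 on the normal diet. Plod1, a lysyl hydroxylase, was lower on both diets (-0.57 on the high-fat diet and -0.32 on the normal diet). Fkbp14, a prolyl isomerase, was lower on the high-fat diet (-0.61) and differed by 0.07 on the normal diet (adjusted p = 0.762). No gene of the list was called between diets at either operation.

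Of 11 tested genes for procollagen trimming and cross-linking, 3 were higher and 2 lower with IRI on the high-fat diet, near the 24.0% and 21.9% of all tested genes, and 4 higher and 1 lower on the normal diet, against 30.2% and 16.6%. Tgm2, a transglutaminase, averaged 278 ± 97.1 TPM in HFD-IRI livers and 105 ± 27.2 TPM in HFD-Sham livers, and 350 ± 47.9 TPM in ND-IRI livers and 43.4 ± 2.50 TPM in ND-Sham livers (SD, n = 3). Lox, the lysyl oxidase of fibril cross-links, was higher by 2.02 on the high-fat diet (adjusted p = 0.000135) and by 1.49 on the normal diet (adjusted p = 0.000961). Loxl4, a related oxidase, was higher by 0.97 on the high-fat diet (adjusted p = 0.00390) and by 1.70 on the normal diet (adjusted p = 9.38e-05). Bmp1, the protease that trims procollagen ends, was lower by a log2 difference of -0.56 on the high-fat diet (adjusted p = 0.00709) and -1.06 on the normal diet (adjusted p = 0.000116). Loxl3 was lower on the high-fat diet (-0.40) and differed by -0.32 on the normal diet (adjusted p = 0.106). In HFD-Sham against ND-Sham livers 3 of these genes were higher and 0 lower, namely Adamts2, Loxl2 and Tgm2, against 4.63% and 1.20% of all tested genes. In HFD-IRI against ND-IRI livers 0 of the 11 were called, against 2.38% higher and 1.48% lower of all tested genes.

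Of 7 tested collagen receptor genes, 1 was higher and 1 lower with IRI on the high-fat diet and 2 were higher on the normal diet, near the 24.0% and 30.2% of all tested genes that were higher. Itgb1, the integrin beta chain shared by the collagen-binding integrins, was higher by 0.64 on the high-fat diet and 0.57 on the normal diet. Ddr1, a collagen-activated kinase, differed by 0.68 on the high-fat diet (adjusted p = 0.0696) and was higher on the normal diet (0.98, adjusted p = 0.0148). Lair1, an inhibitory receptor of leukocytes, was lower on the high-fat diet (-0.78, adjusted p = 0.0155) and differed by -0.23 on the normal diet (adjusted p = 0.426). Of 10 tested genes of collagen degradation, 5 were higher and 1 lower on the high-fat diet and 6 were higher on the normal diet, against 24.0% and 30.2% higher over all tested genes. Timp1, an inhibitor of collagenases, averaged 41.8 ± 4.17 TPM in HFD-IRI livers and 4.41 ± 3.27 TPM in HFD-Sham livers, and 25.3 ± 6.00 TPM in ND-IRI livers and 0.370 ± 0.265 TPM in ND-Sham livers (SD, n = 3). Mmp8, the neutrophil collagenase, was higher by 3.78 on the high-fat diet and 3.92 on the normal diet, and Mmp15, a membrane-type protease, was lower on the high-fat diet (-0.78), with -0.20 on the normal diet, which did not pass.

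Of 25 tested genes of TGF-β and PDGF signaling, which drive collagen transcription in stellate cells, 12 were higher with IRI on the high-fat diet and 14 on the normal diet, with 0 lower on either. Smad3, which carries the TGF-β signal to the nucleus, was higher by 2.94 on the high-fat diet and 2.48 on the normal diet, and Tgif1, a repressor of that signal, by 2.23 on the high-fat diet and 2.13 on the normal diet. The background was 24.0% higher on the high-fat diet and 30.2% on the normal diet. Col1a1, Col1a2 and Col3a1 were not called for IRI in the same libraries.

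Of 16 tested partners of type IV collagen in basement membranes, 5 were higher and 2 lower with IRI on the high-fat diet, and 6 higher and 1 lower on the normal diet, not far from the 24.0% and 30.2% higher of all tested genes. Nid1, which links laminin to type IV collagen, averaged 56.1 ± 29.2 TPM in HFD-IRI livers and 15.0 ± 8.80 TPM in HFD-Sham livers, and 31.4 ± 21.1 TPM in ND-IRI livers and 4.80 ± 1.16 TPM in ND-Sham livers (SD, n = 3). The laminin chain Lamc1 was higher by 0.97 on the high-fat diet and by 1.62 on the normal diet. Smoc1 (-0.70) and Agrn, which encodes agrin (-0.43), were lower on the high-fat diet, against -0.17 and -0.29 on the normal diet, which did not pass. The laminin chain Lamb3 differed by -0.41 on the high-fat diet, which did not pass, and was lower on the normal diet (-0.67). Of 16 tested fibril partners and other matrix proteins, 4 were higher and 1 lower on the high-fat diet, near the 24.0% background, and 3 higher and 1 lower on the normal diet, a smaller share than the 30.2% background. Thbs1, which encodes thrombospondin 1, was higher by 3.69 on the high-fat diet and 4.498 on the normal diet. Tnc, which encodes tenascin C, was higher by 2.49 on the high-fat diet and 2.03 on the normal diet. Tnxb, which encodes tenascin X, was lower on the high-fat diet (-0.87), with -0.26 on the normal diet, which did not pass. Fbln5, an elastic fiber protein, was lower on the normal diet (-0.66), with -0.45 on the high-fat diet, which did not pass. None of these calls on 1 diet passed the threshold in the limma test of the difference between the diets. With the high-fat diet, 3 basement membrane partners were higher and 0 lower in sham livers, and 1 higher and 0 lower in IRI livers. Of the fibril partners, 1 was higher and 0 lower in sham livers, and 2 higher and 1 lower in IRI livers. The diet background was 4.63% higher and 1.20% lower in sham livers, and 2.38% and 1.48% in IRI livers.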

How the data were processed

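Poly(A) RNA of liver was made into stranded libraries and sequenced on a BGI platform, per the labels' protocols. The authors deposited TPM per gene symbol, computed against mouse build GRCm39 (mm39) per the submitters' processing notes. Aligner, counter, annotation and use of strand are not given in the sources used here. Exons of tested collagens share at most 2.5% of their bases with other genes in the GENCODE M21 annotation. Column sums ran from 999999.7 to 1000000.59, so no depth or counting interval could be derived. A second sheet with 23 sample columns for 6 genes was not used.

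After dropping 2 blank entries, genes reaching 1 TPM in 3 or more of the 12 libraries were kept. Values were taken as log2(TPM + 1), and limma 3.58.1 (R 4.3.3) fitted a mean per group over all 12 libraries with a variance trend. The 5 contrasts were two-sided, with Benjamini-Hochberg adjustment over all tested genes. Alternatives were a pseudocount of 0.1, no filter, median-ratio scaling, quantile normalization, the replicate number as a block and the omission of each library. The joint omission of ND-Sham 1 and ND-IRI 1 was chosen once the data had been seen. The method was tested on simulated data. Figures used matplotlib 3.10.9 (Python 3.11.15). Promoter windows came from RefSeq and covered 35 of the 43 members. The CCAAT, TATA and GC box motifs were searched on both strands of the 250 bases before each start. Whole windows were printed only where they overlap no annotated exon. Of the exonic windows of Col4a1 and Col4a2, the 30 bases around both starts were printed.

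The members, their classes and the pathway and marker lists were chosen with earlier results of these data known. Values are given for each library for collagens called in at least 1 contrast and for the 2 most abundant per class. Of each pathway list and IRI contrast, up to 2 called genes with the largest rise and up to 2 with the largest fall are named, except 1 result not reported here. Acta2, Adipoq and the called diet genes of short lists were named after their values were seen. The hepatocyte list is reported for the 9 of its genes in the table.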

Additional observations from a re-analysis of the deposited data

Results flagged for a closer look

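The effect of IRI on Col27a1 differed between the diets in the limma test of the difference itself. The log2 difference, high-fat minus normal diet, was -2.19 (adjusted p = 0.0166). The gene averaged 3.57 ± 0.297 TPM in HFD-IRI livers and 11.6 ± 2.70 TPM in HFD-Sham livers, and 11.6 ± 2.53 TPM in ND-IRI livers and 6.46 ± 1.25 TPM in ND-Sham livers (SD, n = 3). Over all tested genes 13 passed this contrast.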

How the results depend on the processing

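Of 33 calls of a collagen gene in a contrast, 17 were kept under all 18 alternatives and 0 reversed. Calls lost were 2 with the pseudocount of 0.1, 10 with no filter, 3 with median-ratio scaling, 3 with quantile normalization and 0 without ND-Sham 1 and ND-IRI 1. With no filter, 5 collagens were called in HFD-Sham against ND-Sham livers in place of 8, and 3 in HFD-IRI against ND-IRI livers in place of 7. In that fit more genes entered the adjustment, and the standard errors also changed (for Col1a1 from 0.454 to 0.483). Without ND-Sham 1 and ND-IRI 1 the sham diet count was 13, and the difference between the IRI effects was called for 3 genes (Col15a1, Col16a1 and Col27a1) in place of 1. With only ND-Sham 1 left out, neither Col15a1 (adjusted p = 0.0846) nor Col16a1 (adjusted p = 0.122) was called for this difference. Leaving out 1 library gave 6 to 10 calls for IRI on the high-fat diet, 7 to 10 on the normal diet, 1 to 9 for diet in IRI livers, 4 to 13 for diet in sham livers and 0 to 1 for the difference. The lowest diet counts were 1 without ND-IRI 2 or HFD-IRI 2 and 4 without ND-Sham 2 or HFD-Sham 2, and the highest was 13 without ND-Sham 1. For the fits with no filter or with libraries left out, calls over all tested genes were not counted. The counts from those fits describe the members only. Col27a1 was not called for IRI on the normal diet with quantile normalization (0.46, adjusted p = 0.0807).

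The replicate numbers were not shown to pair the libraries. Same-numbered libraries had deviations correlated at -0.188 to 0.418, and 6 of 12 libraries correlated best with their own number. With the replicate block the counts were 8 for IRI on the high-fat diet, 10 on the normal diet, 7 for diet in IRI livers, 8 in sham livers and 1 for the difference, and 1 call (Col5a2) was lost. TPM carry no depth, so how far low members such as Col11a2 and Col12a1 are limited by counting is unknown.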

Other observations

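Among collagens below the filter, some differed in all libraries of a group. Col9a3, a cartilage collagen, had 0.51, 0.46 and 0.48 TPM in HFD-IRI livers, 0.19, 0.33 and 0.16 TPM in HFD-Sham livers, 0.72, 0.51 and 0.80 TPM in ND-IRI livers and 0.15, 0.24 and 0.19 TPM in ND-Sham livers. With no filter it was called for IRI on both diets, as was Col7a1, which forms anchoring fibrils under epithelia. Col7a1 had 0.38, 0.24 and 0.34 TPM in HFD-IRI livers and 0.16, 0.12 and 0.15 TPM in HFD-Sham livers, and 0.45, 0.48 and 0.55 TPM in ND-IRI livers and 0.36, 0.26 and 0.29 TPM in ND-Sham livers. Col8a1, a collagen of vessel walls, had 0.51, 0.41 and 0.86 TPM in HFD-IRI livers and 0.24, 0.32 and 0.35 TPM in ND-IRI livers, and 0.35, 0.88 and 0.36 TPM in HFD-Sham livers and 0.19, 0.12 and 0.15 TPM in ND-Sham livers. Even with no filter, Col8a1 was called in no comparison (diet in IRI livers, adjusted p = 0.461, and in sham livers, adjusted p = 0.189). Others were called lower with no filter: Col23a1 (-0.24, adjusted p = 0.0151) and Col24a1 (-0.18, adjusted p = 0.0292) with IRI on the normal diet, and Col4a3 (-0.19, adjusted p = 0.0256) with IRI on the high-fat diet. All these levels were under 1 TPM, where the number of reads behind a value is unknown. These 6 genes were chosen after their values were seen.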
